A study of Homo sapiens with 3 samples.

Results

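The enzymes that make haem and the oxygenases that open it were followed in OCI-AML2 R50 cells, either left without romidepsin (called untreated here) or treated with it. Romidepsin inhibits histone deacetylases, mainly those of class I. The 9 genes were ALAS1, ALAD, UROS, UROD, CPOX, PPOX and FECH of haem synthesis and the oxygenase genes HMOX1 and HMOX2. They were picked by name out of 25247 named genes, and they were chosen by their place in the pathway with the difference between romidepsin and control libraries in view. Their differences are therefore given as a description, with no p-value, and so are the counts of members that passed a threshold set over all genes. Each member was found in 1 row of every table, under its own symbol.

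OCI-AML2 is an established cell line of acute myeloid leukaemia (AML), and R50 is the name the labels give to the culture used here. All 3 libraries came from R50 cells in MEM alpha medium holding 15% fetal bovine serum and 50 µM cytarabine (Ara-C), the nucleoside drug of standard AML chemotherapy, so the control carried cytarabine as well. The control group had 1 library. The romidepsin group had 2 libraries, from cells treated for 18 h. The sources used here do not give the dose, any vehicle of the control, or whether the romidepsin libraries were separate cultures. The p-values thus rest on the spread of 1 pair of libraries, which may be technical. With 1 control library, a difference between cultures and a difference between treatments cannot be told apart.

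Values are FPKM, fragments scaled by transcript length and by the mapped total of the library, as deposited. The smallest steps between low values corresponded to about 15000000 fragments in the control and about 21000000 and 22000000 in the romidepsin libraries, which is approximate. All 9 myeloid markers looked up (MPO, ELANE, LYZ and others) reached 1 FPKM, and their summed level was 8961 FPKM untreated and 4780 and 4730 FPKM treated. LYZ was the largest part of that sum, at 4258 FPKM untreated and 2630 and 2596 FPKM treated. In the limma fit given below, 8 of them were called lower (41.8% of all tested genes) and 0 higher (34.7%). CD38 stood about level, at 30.5 FPKM untreated and 31.4 and 30.2 FPKM treated. Of 14 erythroid markers, 11 were listed at 0 in every library, among them the globin genes HBA1, HBB and HBG1. In bulk RNA, fewer cells of a type and less RNA per cell cannot be told apart.

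Haem is an iron atom held in a porphyrin ring. Its synthesis starts in the mitochondrion with aminolaevulinate synthase, passes through the cytosol, and ends in the mitochondrion, where ferrochelatase inserts the iron. Haem oxygenases open the ring and release iron, carbon monoxide and biliverdin. Myeloid cells need haem for myeloperoxidase, catalase and the phagocyte oxidase. In liver and other non-erythroid cells the first enzyme is held down by haem itself, and HMOX1 is a known target of the activator NRF2 and of the haem-sensing repressor BACH1.

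Promoter windows of 300 bases (250 before to 50 after the annotated start, numbered from the 5′ end) were read for 7 of the 9 members from RefSeq on GRCh38.p14, matched by symbol; the FPKM tables themselves rest on hg19. UROS and HMOX1 had no entry. The windows of the 4 synthesis genes that stood farthest from the control are shown, each with 1 kind of motif in capitals, since these genes differed in both directions.
ALAS1, chr3:52197833-52198132, plus strand, capitals marking GCGCATGC on both strands, the core of the nuclear respiratory factor 1 site: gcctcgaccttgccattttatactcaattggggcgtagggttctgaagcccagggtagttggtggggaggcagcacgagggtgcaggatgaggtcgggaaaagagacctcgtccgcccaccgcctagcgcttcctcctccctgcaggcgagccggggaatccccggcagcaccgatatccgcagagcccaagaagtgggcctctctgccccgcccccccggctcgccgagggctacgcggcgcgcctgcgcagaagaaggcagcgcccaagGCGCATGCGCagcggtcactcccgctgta
ALAD, the first of its 2 windows, chr9:113401235-113401534, minus strand, capitals marking 2 overlapping CCAAT boxes, 1 on each strand: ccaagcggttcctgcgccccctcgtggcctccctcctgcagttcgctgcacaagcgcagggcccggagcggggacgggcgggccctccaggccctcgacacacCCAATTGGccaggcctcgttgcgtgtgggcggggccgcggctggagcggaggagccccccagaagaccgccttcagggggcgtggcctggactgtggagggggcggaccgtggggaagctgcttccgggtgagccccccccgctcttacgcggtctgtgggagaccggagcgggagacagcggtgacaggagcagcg
CPOX, chr3:98593562-98593861, minus strand, capitals marking the GATA motif AGATAA on the opposite strand: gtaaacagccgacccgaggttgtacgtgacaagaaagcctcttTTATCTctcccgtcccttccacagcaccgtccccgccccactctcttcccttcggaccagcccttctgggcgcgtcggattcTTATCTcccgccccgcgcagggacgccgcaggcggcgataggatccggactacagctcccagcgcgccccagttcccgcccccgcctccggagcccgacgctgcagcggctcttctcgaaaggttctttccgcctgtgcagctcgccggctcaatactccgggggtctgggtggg
UROD, chr1:45012004-45012303, plus strand, capitals marking the antioxidant response element core TGANNNNGC on either strand: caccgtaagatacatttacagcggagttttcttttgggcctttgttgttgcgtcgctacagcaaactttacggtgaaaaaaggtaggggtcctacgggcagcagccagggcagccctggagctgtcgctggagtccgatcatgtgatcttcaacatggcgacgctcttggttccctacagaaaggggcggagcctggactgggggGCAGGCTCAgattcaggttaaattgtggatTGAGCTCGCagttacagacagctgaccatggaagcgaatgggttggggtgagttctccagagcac

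Of the 35116 promoter windows in the same table, 3.05% held GCGCATGC, 10.3% held AGATAA, 34.6% held CCAAT and 41.8% held TGANNNNGC on either strand. The ALAS1 window held GCGCATGC at bases 272 to 279 and its reverse complement at bases 274 to 281, past the start; this motif was added after the windows were seen. The CPOX window held AGATAA at bases 44 to 49 and again at bases 126 to 131, and also 1 antioxidant response element core at bases 270 to 278, left in lower case. The UROD window held that core at bases 206 to 214 and 236 to 244, and none of the other motifs. The same core was also in the windows of FECH and PPOX, genes that stood above the control. Besides ALAD, CCAAT was in windows of ALAS1, PPOX and HMOX2, and besides CPOX, AGATAA was in a window of PPOX. The AP-1 motif TGANTCA, which becomes a match of the antioxidant core when GC follows it, was in none of the member windows and in 7.71% of all windows. The E-box CACGTG was found among the members in the first HMOX2 window alone, at bases 223 to 228, and in 7.26% of all windows. These matches describe letters and not bound sites.

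The first 2 enzymes of synthesis stood at close to 2 times their control level after romidepsin. ALAS1, the housekeeping form of aminolaevulinate synthase that sets the rate of the pathway outside red cells, stood at 29.6 FPKM untreated and, treated, at 57.5 and 54.7 FPKM (56.1 ± 2.03, SD, n = 2). This was 1.89 times the control level and 0.90 higher on the log2(FPKM + 1) scale on which all differences are given. ALAD, which joins 2 aminolaevulinate molecules into porphobilinogen, stood at 12.6 FPKM untreated and, treated, at 25.1 and 25.3 FPKM (25.2 ± 0.167, SD, n = 2). The difference was 0.95. For both genes the romidepsin libraries lay close together and above the control, where 43.8% of all tested genes had both above it. Both genes stayed higher with each library scaled to the same FPKM sum, called equal-sum scaling (1.13 and 1.17), and with quantile normalization. ALAS2, the erythroid form of the first enzyme, was listed at 0, 0 and 0.0232 FPKM.

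UROS and UROD act in the cytosol in the middle of the pathway, and stood about level and lower, respectively. UROS, uroporphyrinogen III synthase, which closes the ring, stood at 51.4 FPKM untreated and, treated, at 48.6 and 47.5 FPKM (48.1 ± 0.797, SD, n = 2). Its difference was -0.09, but 0.14 with equal-sum scaling and 0.07 with quantile normalization, so its direction depended on the scaling. UROD, uroporphyrinogen decarboxylase, stood at 34.0 FPKM untreated and, treated, at 22.9 and 23.1 FPKM (23.0 ± 0.108, SD, n = 2), which put the control at 1.48 times the romidepsin mean. The UROD difference of -0.54 became -0.31 with equal-sum scaling and -0.42 with quantile normalization. UROD was the only member lower under these 3 scalings.

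The last 3 enzymes, which work in or at the mitochondrion, were all above the control. CPOX, coproporphyrinogen oxidase, stood at 26.3 FPKM untreated and, treated, at 41.0 and 40.7 FPKM (40.9 ± 0.155, SD, n = 2). Its difference was 0.61, or 1.55 times the control level. PPOX, protoporphyrinogen oxidase, stood at 7.29 FPKM untreated and, treated, at 8.92 and 8.65 FPKM (8.78 ± 0.190, SD, n = 2), a difference of 0.24. FECH, ferrochelatase, stood at 7.54 FPKM untreated and, treated, at 9.54 and 9.23 FPKM (9.38 ± 0.219, SD, n = 2), a difference of 0.28. Both romidepsin libraries of CPOX, PPOX and FECH lay above the control, as did those of 43.8% of all tested genes. All 3 also stayed above it with equal-sum scaling (0.85, 0.45 and 0.50) and with quantile normalization (0.75, 0.19 and 0.24).

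**Figure D1:**
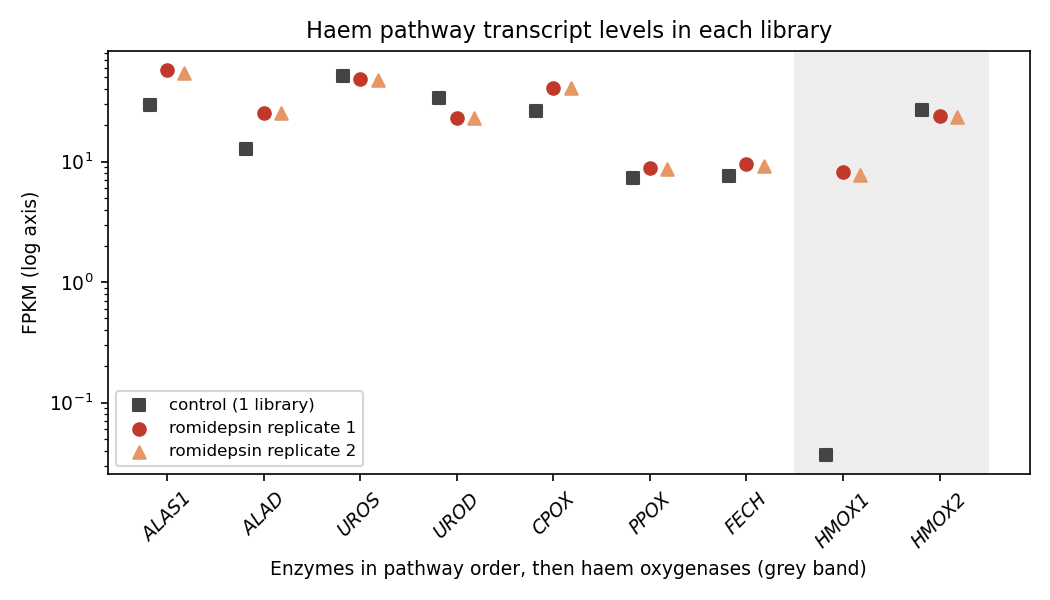
FPKM on a log axis of each haem enzyme in pathway order and of both oxygenases (grey band), with 1 square for the control library and a circle and a triangle for romidepsin replicates 1 and 2. HMOX1 goes from 0.0366 to 8.25 and 7.70 FPKM, while the other 8 genes stay between 7.29 and 57.5 FPKM.

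The order of the 7 synthesis members by FPKM, a level per transcript length, differed between the groups. In the control it ran UROS, UROD, ALAS1, CPOX, ALAD, FECH and PPOX. In both romidepsin libraries ALAS1 came first, followed by UROS, CPOX, ALAD and UROD, and FECH and PPOX were again last. ALAS1 made up 17.5% of the summed FPKM of the 7 genes in the control and 26.9% and 26.1% after romidepsin. The ratio of ALAS1 to UROD was 0.871 in the control and 2.51 and 2.37 after romidepsin. Such a ratio is the same with equal-sum scaling, which multiplies a library by 1 factor, but not with quantile normalization. The ratio of CPOX to UROD was 0.775 in the control and 1.79 and 1.76 after romidepsin. These ratios restate the member differences given above, with UROD, the lower member, as the divisor. They describe the values and test nothing.

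**Figure D2:**
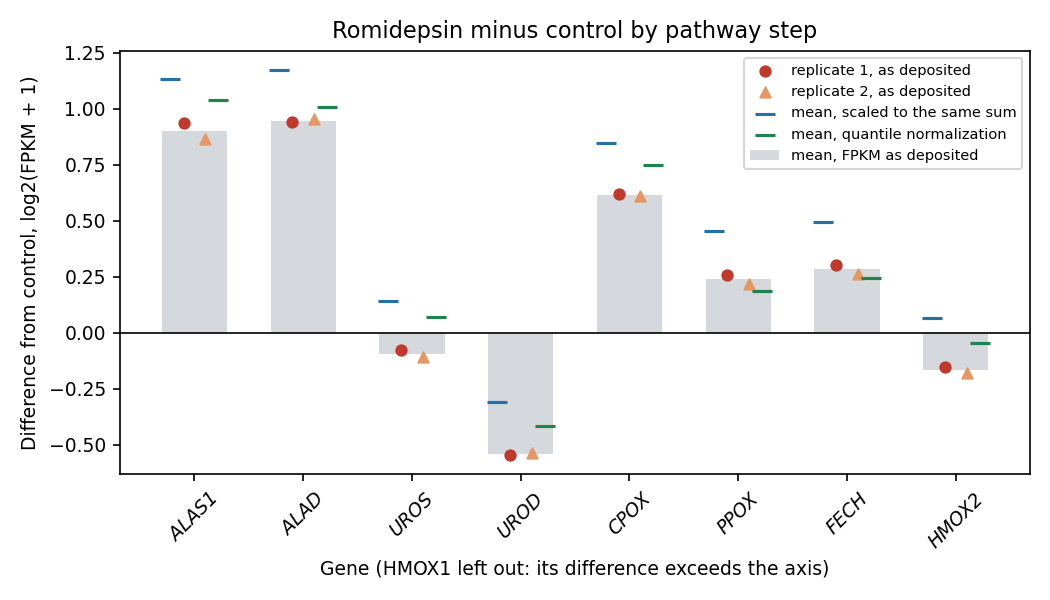
Difference from the control in log2(FPKM + 1) for each gene in pathway order without HMOX1. Bars and points use FPKM as deposited (mean, replicate 1, replicate 2), and dashes give the mean with equal-sum scaling and with quantile normalization. ALAS1, ALAD, CPOX, PPOX and FECH lie above 0 and UROD below 0 in all of them, while UROS and HMOX2 cross 0.

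HMOX1, the inducible haem oxygenase, was near the level of 1 fragment in the control and far above it after romidepsin. It stood at 0.0366 FPKM untreated and, treated, at 8.25 and 7.70 FPKM (7.97 ± 0.388, SD, n = 2). With the depth estimated above and the longest annotated coding transcript of 1822 bases, these values correspond to about 1.03 fragments in the control and about 322 and 303 fragments after romidepsin. On the shorter coding transcript of 921 bases they correspond to about 0.52, 163 and 153 fragments, and both lengths come from an annotation of another build than hg19. Taking the control value as 1 fragment, the ratio of 218 had a 95% Poisson interval of 39.1 to 8615. That interval covers counting error in the control only, and it is no test, since HMOX1 was chosen with this difference in view. The difference of 3.11 on the log2(FPKM + 1) scale was number 19 from the top of 11708 tested genes. That scale compresses it: with a pseudocount of 0.1 in place of 1 the difference was 5.88. HMOX1 was the only member under 1 FPKM in the control.

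HMOX2, the constitutive haem oxygenase, stood at 26.7 FPKM untreated and, treated, at 23.9 and 23.5 FPKM (23.7 ± 0.340, SD, n = 2). Its difference of -0.17 became 0.07 with equal-sum scaling and -0.05 with quantile normalization. HMOX1 thus made up 0.137% of the summed FPKM of both oxygenases in the control and 25.6% and 24.7% after romidepsin. HMOX2 stayed the more abundant oxygenase transcript per length in every library. The sum of both was 26.7 FPKM untreated and 32.2 and 31.2 FPKM treated.

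**Figure D3:**
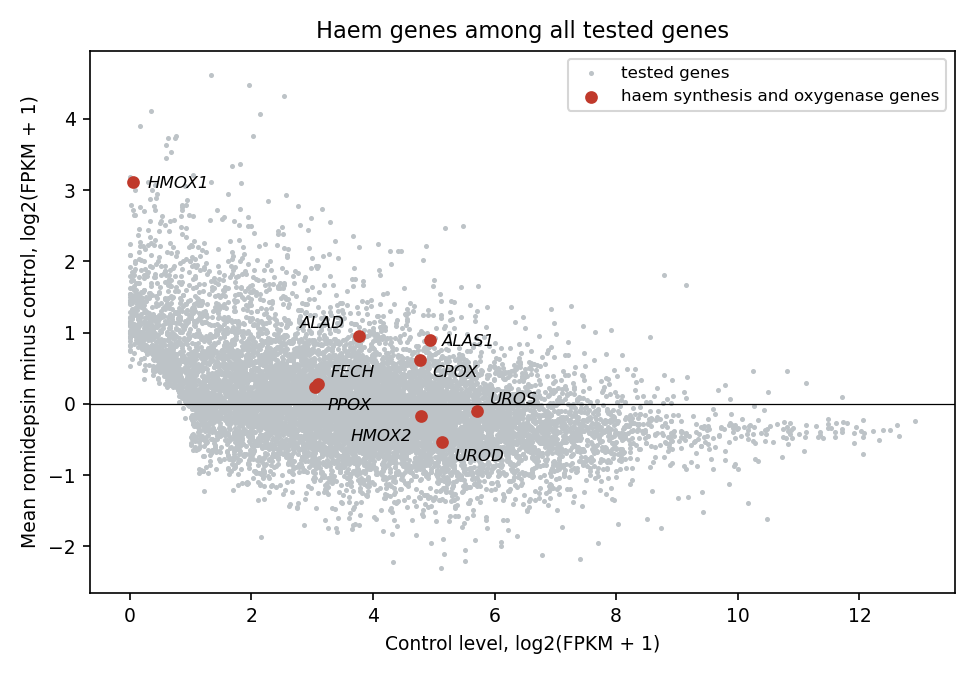
Mean difference from the control against the control level, both as log2(FPKM + 1), for the 11708 tested genes (grey) and the 9 haem genes (red). HMOX1 sits near the top at the lowest control levels with a difference of 3.11, and the other 8 lie between -0.54 and 0.95.

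In counts, the control was below both romidepsin libraries for 6 of the 9 members (43.8% of all tested genes) and above both for 3 (51.4%). With equal-sum scaling 8 were higher and 1 lower, and with quantile normalization 7 and 2. In the limma fit over all tested genes, 6 members were called higher (34.7% of all tested genes) and 2 lower (41.8%). With no filter on low values 4 were called higher (8.11%) and 1 lower (8.27%), with equal-sum scaling 7 (48.7%) and 1 (26.2%), and with quantile normalization 6 (32.8%) and 1 (37.7%). At least 2-fold in both libraries, 1 member (HMOX1) was higher (7.43%) and none was lower (3.08%). HMOX1 passed the filter of 1 FPKM through the romidepsin libraries alone, which fixed its direction. With equal-sum scaling ALAS1 and ALAD joined it, giving 3 members of 9 against 10.2% of all genes. Nothing is read from these counts, since the members were chosen on the same difference. Equal-sum scaling moved the median of all genes by 0.21, from -0.05 to 0.16.

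The reductases that serve haem oxygenase and biliverdin rose. The related lists, like the members, were chosen with earlier results of these data known. In the list of 4 genes around the bilirubin steps, 3 were tested and 3 were called higher (34.7% of all tested genes), with a median difference of 1.08 against -0.05 over all tested genes. POR, the reductase that supplies electrons to haem oxygenase, rose from 22.5 FPKM to 51.2 and 52.0 FPKM (difference 1.16, limma adjusted p = 5.85e-07). BLVRB, a biliverdin reductase, rose from 16.4 FPKM to 37.6 and 34.2 FPKM (difference 1.08, limma adjusted p = 4.20e-06), a call lost with no filter on low values (adjusted p = 0.0699). BLVRA, the main biliverdin reductase of adult tissue, rose from 45.1 FPKM to 64.3 and 62.7 FPKM (difference 0.48, limma adjusted p = 2.34e-05). UGT1A1, which conjugates bilirubin, was read only in a joined row of the UGT1A genes and was not tested.

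In a list drawn up with earlier results of these data known, partners of synthesis were more often called lower than higher. Of the 14 genes in this list, which holds mitochondrial transporters, iron-sulphur assembly factors and regulators of the first enzyme, 13 were tested, 10 were called lower and 2 higher (median -0.35), against 41.8% lower and 34.7% higher over all tested genes. With equal-sum scaling 7 were lower and 3 higher (median -0.11, against 0.16 over all genes), where 26.2% of all genes were lower and 48.7% higher. With no filter on low values 7 of 14 were lower and 0 higher, where 8.27% of all genes were lower and 8.11% higher. CLPX, a mitochondrial unfoldase that acts on aminolaevulinate synthase, fell from 30.0 FPKM to 15.4 and 14.7 FPKM, by 0.95. ABCB10, a mitochondrial transporter needed for haem synthesis, fell from 182 FPKM to 109 and 104 FPKM, by 0.77. SLC25A38, a mitochondrial carrier that supplies glycine for the first step, fell from 17.7 FPKM to 10.3 and 9.97 FPKM, by 0.75. These 3 had limma adjusted p-values of 1.49e-05 or less. The 2 higher genes were FDXR, at 3.95 FPKM untreated and at 6.39 and 5.83 FPKM treated, and ABCB6, at 0.340 FPKM in the control and so tested only through the romidepsin libraries. Both calls were lost with no filter on low values (adjusted p = 0.128 and 0.110), and that of ABCB6 also with quantile normalization (adjusted p = 0.0997).

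Of 17 iron genes listed, 16 were tested, 3 were called higher (34.7% of all tested genes) and 8 lower (41.8%), with a median of -0.16. With equal-sum scaling 7 were higher (48.7%) and 4 lower (26.2%), near the shares over all genes. FTH1, the heavy chain of ferritin, which stores iron, rose from 152 FPKM to 395 and 399 FPKM (difference 1.38, limma adjusted p = 1.35e-07). TFR2, a transferrin receptor, fell from 6.02 FPKM to 2.74 and 3.10 FPKM, by 0.84 (limma adjusted p = 0.000109). CYBRD1, a ferric reductase, fell from 12.4 FPKM to 8.09 and 8.50 FPKM, by 0.52 (limma adjusted p = 0.000167). The calls of TFR2 and CYBRD1 were lost with no filter on low values (adjusted p = 0.0981 and 0.0728).

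Of 13 genes of haem transport and use, 10 were tested, 4 were called higher (34.7% of all tested genes) and 3 lower (41.8%), with a median of 0.01. With equal-sum scaling 7 were higher (48.7%) and 1 lower (26.2%). LRP1, the receptor for haem bound to haemopexin, stood at 0.263 FPKM untreated and, treated, at 5.36 and 5.45 FPKM, and was tested only through the romidepsin libraries. SLC48A1, which moves haem out of lysosomes, rose from 8.44 FPKM to 15.5 and 16.5 FPKM, by 0.85 (limma adjusted p = 1.13e-05). COX10, which turns haem B into haem O for cytochrome oxidase, fell from 16.4 FPKM to 11.1 and 10.3 FPKM, by 0.58 (limma adjusted p = 0.000105). The calls of SLC48A1 and COX10 were lost with no filter on low values (adjusted p = 0.0592 and 0.0948). Of 19 haem proteins and their partners, 14 were tested, 6 were called higher and 6 lower (median 0.07), or 8 and 5 with equal-sum scaling, where the shares over all genes are those just given. PTGS2, cyclooxygenase 2, stood at 0.577 FPKM untreated and, treated, at 6.15 and 6.89 FPKM, and CYP1B1, a cytochrome P450, was at 0.400 FPKM and at 5.12 and 4.62 FPKM. Both were under 1 FPKM in the control, so the filter fixed their direction. CYC1, cytochrome c1 of the respiratory chain, fell from 376 FPKM to 204 and 203 FPKM, by 0.88 (limma adjusted p = 6.16e-07).

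Of 16 regulators of haem genes, 14 were tested, 6 were called higher (34.7% of all tested genes) and 5 lower (41.8%), with a median of 0.06. With equal-sum scaling 9 were higher (48.7%) and 3 lower (26.2%). The main counts lay near the shares over all genes. BACH1, the haem-sensing repressor of HMOX1, rose from 11.9 FPKM to 16.7 and 17.0 FPKM, by 0.46 (limma adjusted p = 0.000119). NFE2L2, which encodes NRF2, stood at 29.1 FPKM untreated and, treated, at 28.6 and 30.4 FPKM (limma adjusted p = 0.740), though it was called higher with equal-sum scaling (difference 0.25, adjusted p = 0.00544). KEAP1, which marks NRF2 for degradation, fell from 42.5 FPKM to 24.8 and 24.4 FPKM, by 0.76 (limma adjusted p = 4.11e-06). Of the small MAF partners of NRF2 and BACH1, MAFF rose from 2.19 FPKM to 5.48 and 5.50 FPKM, by 1.02. MAFK had a difference of 0.02 and was not called (limma adjusted p = 0.760), but was called higher with equal-sum scaling (0.25, adjusted p = 0.00407). MAFG was called lower by 0.19, but stood 0.04 higher with equal-sum scaling (adjusted p = 0.371).

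NFE2, the erythroid and megakaryocyte relative of NRF2, rose from 14.6 FPKM to 38.6 and 40.4 FPKM, by 1.37 (limma adjusted p = 5.63e-07). NR1D1 and NR1D2, nuclear receptors that bind haem, fell to 2.58 and 2.56 FPKM from 5.92 and to 1.20 and 1.33 FPKM from 3.56, and both calls were lost with no filter on low values (adjusted p = 0.0508 and 0.0723). HIF1A, the oxygen-responsive factor, rose by 0.46 from 18.1 FPKM. NRF1, nuclear respiratory factor 1, had a difference of -0.22 that was called lower (limma adjusted p = 0.0248), but not with equal-sum scaling (adjusted p = 0.894). EIF2AK1, the haem-regulated kinase that halts translation, had a difference of 0.10 (limma adjusted p = 0.0811) and was called higher with equal-sum scaling (0.34). PPARGC1A and FOXO1, regulators of ALAS1 in liver, were at 0.671 and 0.162 FPKM in the control, so the filter fixed the direction of their higher calls. The PPARGC1A call was lost with no filter on low values (adjusted p = 0.0592) and with quantile normalization (adjusted p = 0.0582).

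Of 9 other targets of NRF2 and BACH1, 8 were tested, 5 were called higher (34.7% of all tested genes) and 1 lower (41.8%), with a median of 0.36 that became 0.18 with quantile normalization. With equal-sum scaling 7 were higher (48.7%) and 1 lower (26.2%), and with no filter on low values 2 higher (8.11%) and 0 lower (8.27%). Among the higher genes, OSGIN1 was at 0.625 FPKM in the control, so the filter fixed its direction. The OSGIN1 call was lost with no filter on low values (adjusted p = 0.363) and with quantile normalization (adjusted p = 0.623). GCLM and TXNRD1 were not called (limma adjusted p = 0.856 and 0.0797), but were called higher with equal-sum scaling (adjusted p = 0.00855 and 0.00624). ME1, malic enzyme, rose from 3.20 FPKM to a mean of 11.5 FPKM, by 1.57 (limma adjusted p = 1.60e-06). GCLC, the catalytic subunit of the first enzyme of glutathione synthesis, rose from 17.2 FPKM to 31.0 and 29.2 FPKM, by 0.77 (limma adjusted p = 9.66e-06). SLC7A11, the cystine transporter, fell from 4.19 FPKM to 1.72 and 1.90 FPKM, by 0.88 (limma adjusted p = 0.000123). The calls of GCLC and SLC7A11 were lost with no filter on low values (adjusted p = 0.0636 and 0.0829). Over all 92 related genes, 78 were tested, 29 were called higher (34.7% of all tested genes) and 33 lower (41.8%), or 44 (48.7%) and 21 (26.2%) with equal-sum scaling. The main counts lay near the shares over all genes.

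**Figure D4:**
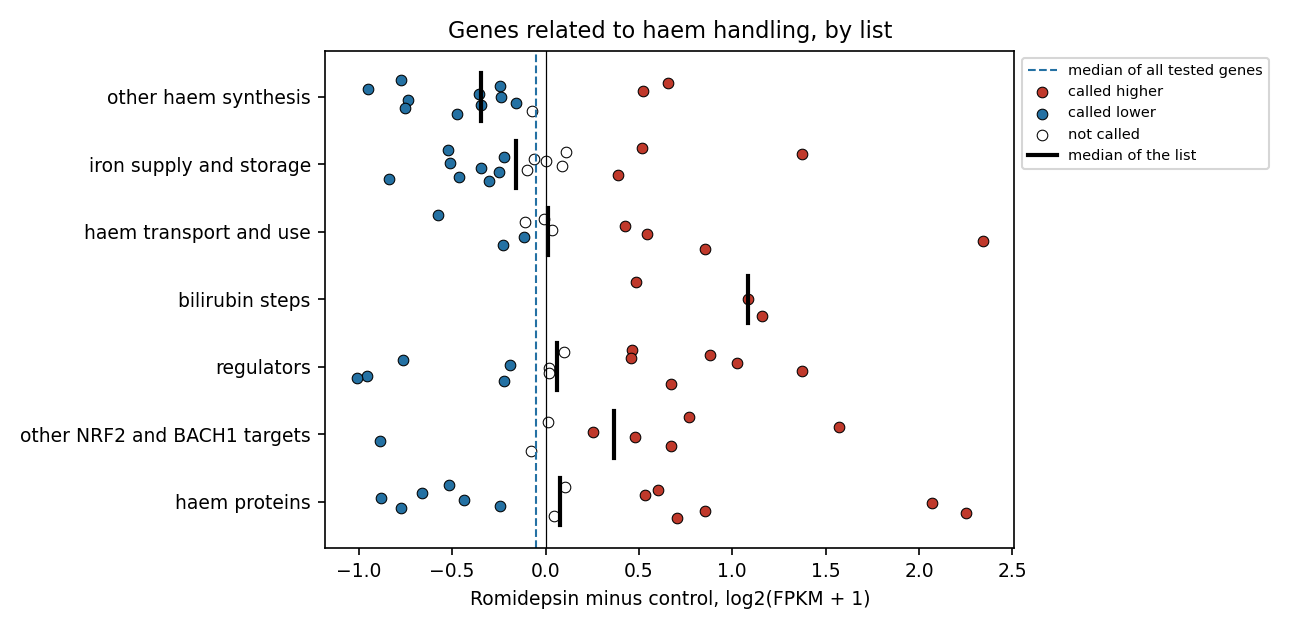
Difference from the control in log2(FPKM + 1) for each tested gene of the 7 related lists, red where called higher, blue where called lower and white where not called by limma. Black bars are list medians and the dashed line is the median of all tested genes at -0.05. The bilirubin steps have the highest median (1.08) and the partners of synthesis the lowest (-0.35).

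Markers of other cells that carry haem genes were also looked up, to be read beside the 34.7% of all tested genes called higher. Of 9 macrophage markers, 3 reached 1 FPKM (CD68, CD14 and MARCO) and all 3 were called higher. Their list summed to 53.0 FPKM in the control and to 66.7 and 66.3 FPKM after romidepsin, while MRC1 and C1QB were listed at 0 in every library and CD163 at 0, 0.196 and 0.214 FPKM. Of the 14 erythroid markers, EPOR alone reached 1 FPKM and it was called higher; the list summed to 6.01 FPKM in the control and to 10.9 and 10.7 FPKM after romidepsin, and GATA1 was at 0, 0.0951 and 0 FPKM. Of 4 fibroblast markers, 3 were called higher, from a list sum of 0.608 FPKM in the control to 7.61 and 7.33 FPKM. The other, COL1A2, was listed at 0 in every library. The 3 called were each under 1 FPKM in the control, as was MARCO, so the filter fixed their direction. Summed levels of 5 hepatocyte markers (0.696, 1.49 and 1.47 FPKM), 4 epithelial markers (0, 0.0196 and 0.0764 FPKM) and 4 lymphoid markers (0.756, 2.45 and 2.02 FPKM) were under 3 FPKM in every library. Of these, 1 hepatocyte marker (SERPINA1) and 1 lymphoid marker (CD79A) were called higher, each from under 1 FPKM in the control. The part of these genes in the haem values was not tested.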

How the data were processed

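Transcript levels were read from 1 control and 2 romidepsin libraries of OCI-AML2 R50 cells. FPKM values were deposited by the authors, per the file headers, as 1 table of 28837 rows per library. The submitters' processing notes list TopHat, Cufflinks, Cuffdiff and the build hg19. For these tools the sources used here give no version, setting or annotation. Rows with no gene name (1770, 21.1% to 22.3% of the summed FPKM) or named by a bare number (27) were left out, and rows of 1 symbol were summed.

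Genes reaching 1 FPKM in at least 1 library (11708) were compared on log2(FPKM + 1), which understates changes of low genes, with limma 3.58.1 in R 4.3.3 (mean-variance trend, Benjamini-Hochberg adjustment over all tested genes, threshold 0.05). The fit had 1 residual and 6.06 prior degrees of freedom, and the single control was taken to vary as much as the treated pair. The fit and the depth estimate were tested on simulated data. The simulation of the fit used equal spread in every library and few changed genes, so it could not check how much the single control varies. Depth came from single-transcript genes of GENCODE 29. Since the files hold no counts, intervals rest on it and cover counting error only. Python 3.11.15, pandas 2.3.3, numpy 2.4.6, scipy 1.17.1 and matplotlib 3.10.9 were used.

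The members, the 7 related lists and the marker lists were chosen with earlier results of these data known. All 9 members, ALAS2, the regulators and bilirubin genes reaching 1 FPKM, and per list the 3 called genes with the largest difference were named. FDXR, ABCB6, OSGIN1, GCLM, TXNRD1, FTL and UGT1A1 were named after their values were seen. A few genes are not reported here, and were taken out of the related and marker lists after these were first counted. Alternatives were another pseudocount, 2 other filters, 2 scalings, single-row symbols, no trend, and each romidepsin library left out.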

Additional observations from a re-analysis of the deposited data

How the results depend on the processing

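Of the members, ALAS1, ALAD, UROD, CPOX, PPOX, FECH and HMOX1 kept their direction under both other scalings. No other alternative could reverse a member, since both romidepsin libraries of each lay on the same side of the control. UROS reversed to 0.14 with equal-sum scaling and 0.0714 with quantile normalization, and HMOX2 to 0.0658 with equal-sum scaling. Among the named related genes, the called MAFG reversed to 0.0446 with that scaling, and the called FTL to 0.0213 with it and 0.0662 with quantile normalization. With no filter on low values, 2047 genes were called higher and 2088 lower (4057 and 4896 with it) and 14 related genes lower (33), and 16 of 33 calls of named related genes were lost (adjusted p from 0.0508 to 0.363); of the members, 4 were then called higher and 1 lower, against 6 and 2 with the filter. With either other scaling 1 member was called lower. Equal-sum scaling left 3069 genes called lower, 172 at least 2-fold lower (361), with 44 related genes higher (29) and 21 lower. A pseudocount of 0.1 gave 1308 genes at least 2-fold higher (870) and 543 lower, and a mean of at least 5 FPKM gave 463 higher. Leaving out 1 romidepsin library gave 951 to 957 genes at least 2-fold higher and 424 to 429 lower; it left no residual degrees of freedom, so no test was run. No paired analysis was possible because there is 1 control library and its label carries no replicate number. HMOX1 in the control rests on about 1 fragment or fewer, so its ratio has a wide interval. Precision elsewhere is limited by 1 control library.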

Other observations

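The genes whose levels over the 3 libraries lay nearest to those of HMOX1 (Euclidean distance on log2(FPKM + 1), single-gene symbols) were ESAM, SV2A and CEND1, at distances of 0.15, 0.33 and 0.35. ESAM, an endothelial cell adhesion gene, stood at 0.0594 FPKM untreated and at 7.36 and 7.67 FPKM treated. SV2A is a synaptic vesicle gene. Those nearest to UROS, the member with the smallest difference, were DCTN6, SGTA and PTOV1, at distances of 0.01, 0.02 and 0.04.

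The ratio of the ferritin chains differed between the groups. FTH1 stood at 5.33% of the FPKM of FTL, the light chain, in the control and at 16.2% and 16.2% after romidepsin. FTL itself stood at 2858 FPKM untreated and at 2440 and 2468 FPKM treated, a difference of -0.22 that was called lower (limma adjusted p = 0.000411) but not with equal-sum scaling (difference 0.02, adjusted p = 0.541), and called higher with quantile normalization (difference 0.07, adjusted p = 0.0471).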
